A study of Rattus norvegicus with 90 samples.

Results

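Untreated primary rat hepatocytes were compared with untreated rat cardiomyocytes from heart after 9 h in vehicle. The comparison used the 10 libraries whose labels gave the dose as Vehicle and the duration as 9 h in these cell types, of 90 libraries in the series. The hepatocyte group was made of 5 libraries, MS-91 to MS-95, and the cardiomyocyte group of 5 libraries, MS-151 to MS-155. Neither group had received thioacetamide-S-oxide, the metabolite of the liver toxicant thioacetamide that the series tested, and both had been kept in culture for a further 18 h before vehicle was added. Vehicle was maintenance medium, which the labels name as MM250 for hepatocytes. The cells came from Sprague-Dawley rats. The hepatocytes were bought cryopreserved and grown on plates coated with collagen. For the cardiomyocytes the sources used here name neither a supplier nor a medium. Cell type, medium and supply therefore cannot be told apart in this comparison, nor can anything that goes with the library numbers, since those of the groups do not interleave. Nothing in the labels says that the 5 libraries of a group came from separate animals or cultures, so the p-values measure the spread between these libraries, which may be technical.

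Hepatocytes are the parenchymal cells of the liver. They secrete most of the proteins of blood plasma, store and release glucose, make bile and carry out much of the metabolism of drugs, and after isolation they are known to lose part of this programme in culture. Cardiomyocytes are the contractile cells of the heart. They are filled with sarcomeres, the arrays of actin and myosin that shorten at each beat, and with the mitochondria that supply them, and primary preparations are known to carry fibroblasts and other cells of the heart. A comparison of their RNA asks which transcripts each cell type holds before any toxicant is added.

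Poly-A RNA was sequenced in pairs of 150-base reads, and each library was deposited as estimated counts and as TPM, an abundance corrected for transcript length and scaled to a fixed total per library. Total estimated counts ranged from 15413513 to 34074008 in the hepatocyte libraries and from 19467515 to 27585600 in the cardiomyocyte libraries. Of each table's 65166 targets, 40071 were Ensembl transcripts, and the other 25095 were genomic intervals that were left out. Transcripts took 92.8% ± 0.88 of the estimated counts in hepatocytes and 91.9% ± 1.75 in cardiomyocytes (SD, n = 5 each). The transcript identifiers were not paired with gene names here, so the results are given by transcript, and the labels were checked by likeness between libraries and not by marker genes. Across the 17893 transcripts tested, the Spearman correlation of levels was 0.986 to 0.993 between hepatocyte libraries and 0.989 to 0.992 between cardiomyocyte libraries. Between a hepatocyte and a cardiomyocyte library it was 0.606 to 0.615. Each library was thus nearest to its own label. Such correlations run over transcripts, not over samples, and share the depth of each library.

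Most transcripts differed between the cell types. A transcript was called when its adjusted p-value in edgeR's quasi-likelihood test was at most 0.05 and its natural-log fold change was at least 0.41 in size, which is a 1.5-fold difference. Of 17893 transcripts tested, 11469 were called, a share of 64.1%. Hepatocytes had the higher level for 5468 of them, 30.6% of those tested, and cardiomyocytes for 6001, 33.5% of those tested. In bulk samples such as these, fewer cells of a type and less RNA per cell cannot be told apart. The median difference over all tested transcripts was -0.004 on the log2 scale, so the directions are relative to a centre close to 0. The median size of the difference was 1.01 on the log2 scale and the median standard error was 0.11. The levels of the 5 hepatocyte and 5 cardiomyocyte libraries did not overlap for 13647 transcripts, 76.3% of those tested. Among the called transcripts they did not overlap for 10947 of 11469.

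The differences higher in cardiomyocytes were larger in size. The median fitted fold of the called transcripts was 3.05 where hepatocytes were higher and 4.98 where cardiomyocytes were higher. A difference of 10-fold or more was called for 1442 transcripts higher in hepatocytes, 8.06% of those tested, and for 2355 higher in cardiomyocytes, 13.2% of those tested. At 100-fold or more the fit gave 656 transcripts for hepatocytes and 1038 for cardiomyocytes, and at 1000-fold or more the order turned, with 327 for hepatocytes and 288 for cardiomyocytes. The turn rested on transcripts that were at 0 counts in all 5 libraries of the other cell type, 344 of those higher in hepatocytes and 281 of those higher in cardiomyocytes, for which a fitted fold depends on the fit's prior count. With such transcripts set at a floor of 3 counts per library, 1389 and 2309 stayed at 10-fold or more, 472 and 826 at 100-fold or more, in hepatocytes and cardiomyocytes respectively. At 1000-fold or more the floor left 2.80% of the calls of hepatocytes and 3.05% of those of cardiomyocytes. The median folds were then 3.05 and 4.98. On log2(CPM + 0.5) in limma, where the pseudocount shrinks the folds of low transcripts, 936 and 1448 transcripts were 10-fold or more apart.

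**Figure D1:**
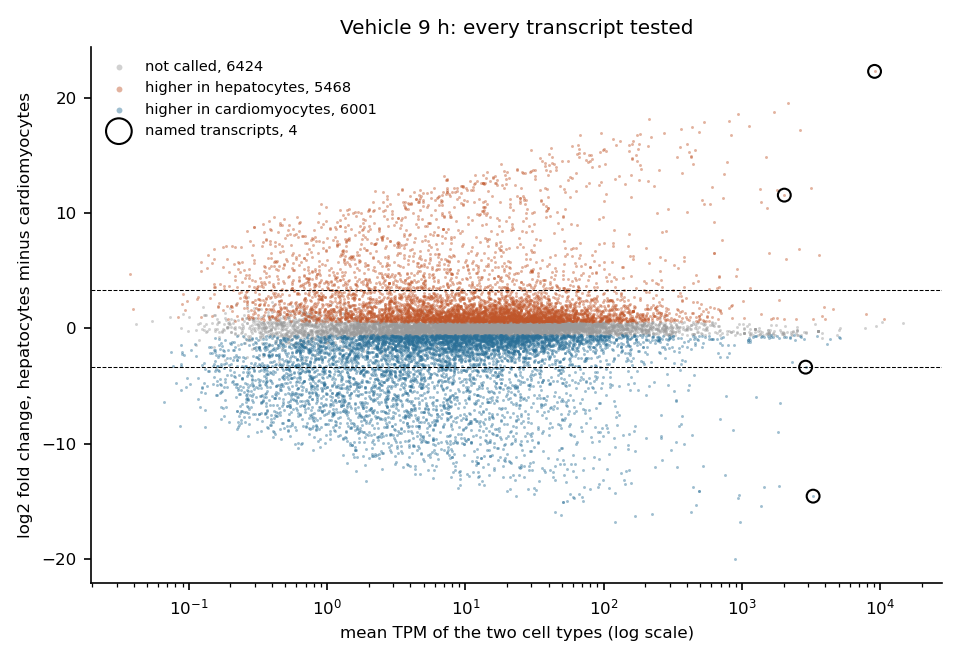
Each point is 1 of the 17893 transcripts tested, with its mean TPM over the cell types on a log axis and its fitted log2 fold change, hepatocytes minus cardiomyocytes, on the vertical axis. Grey points were not called, orange were higher in hepatocytes (5468), blue were higher in cardiomyocytes (6001), open circles mark the 4 transcripts named in the text, and dashed lines mark 10-fold. The called points reach further from 0 at low levels than the grey points, and the upper edge on each side holds transcripts at 0 counts in the other cell type, whose fitted fold depends on the prior count.

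The direction of the calls turned with the level of the transcript. Below a mean of 1 TPM over the cell types, cardiomyocytes were higher for 980 called transcripts and hepatocytes for 556. From 1 to 10 TPM the counts were 2654 for cardiomyocytes and 2044 for hepatocytes. From 10 to 100 TPM hepatocytes led with 2386 against 2031, and from 100 to 1000 TPM with 449 against 294. At 1000 TPM or more, 42 transcripts were higher in cardiomyocytes and 33 in hepatocytes. The share of tested transcripts that was called fell from 71.9% below 1 TPM to 44.9% at 1000 TPM or more, while the median standard error fell from 0.44 to 0.044 on the log2 scale. The median size of the difference was 2.21 on the log2 scale below 1 TPM and 0.56 at 1000 TPM or more. The filter on counts lets a low transcript be tested when only 1 cell type reaches the minimum, so the low classes favour transcripts that differ, and their shares and sizes are no measure of low transcripts at large.

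A large body of transcripts was held in common. At least 1 TPM was reached in all 5 hepatocyte libraries by 13683 transcripts, in all 5 cardiomyocyte libraries by 14495, and in all 10 libraries by 11856. Of these 11856 transcripts, 11554 also reached 1 TPM in all 5 vehicle libraries at 9 h from renal proximal tubular epithelial cells, the other cell type of the series. Of 6353 transcripts with a mean of 10 TPM or more in both cell types, 1669 differed by less than 1.2-fold. A total of 6424 transcripts was not called, and 5998 of these were fitted within the 1.5-fold limit. The remaining 426 were further apart without passing the adjusted p-value.

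Transcripts found in one cell type and all but absent from the other were similar in number and unlike in level. For hepatocytes, 657 transcripts reached 1 TPM in all 5 libraries with fewer than 3 counts in each cardiomyocyte library, and 310 of them had 0 counts there. For cardiomyocytes, 643 transcripts met the same rule against the hepatocyte libraries, and 204 had 0 counts. The median level was 9.91 TPM in the hepatocyte set and 5.91 TPM in the cardiomyocyte set. A mean of 100 TPM was reached by 84 transcripts of the hepatocyte set and by 37 of the cardiomyocyte set. The highest was at 18206 TPM in hepatocytes and at 2900 TPM in cardiomyocytes. Together the hepatocyte set held 7.54% of the transcript TPM of hepatocytes, between 7.38% and 7.80% in single libraries. The cardiomyocyte set held 2.06% of the transcript TPM of cardiomyocytes, between 1.99% and 2.18%. The sets were picked by these levels, so the values describe them and are no test. A count under 3 says that a transcript was not detectable at this depth and not that it was absent. The limits are raw counts, and the hepatocyte group was deeper, with 128728787 counts on transcripts against 101183290 in cardiomyocytes. A low count was thus easier to reach in cardiomyocyte libraries, which favours the hepatocyte set in number.

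The renal libraries, which the rule did not use, placed these sets differently. Of the 657 hepatocyte transcripts, 41.6% also had fewer than 3 counts in every renal library and 20.5% reached 1 TPM in all 5. Of the 643 cardiomyocyte transcripts, 19.3% had fewer than 3 counts in every renal library and 53.3% reached 1 TPM in all 5. The renal vehicle libraries at 9 h held more of some hepatocyte transcripts than other renal groups, as given below for the named transcripts. With the renal vehicle libraries at 24 h in their place, chosen after seeing the data, 63.3% of the hepatocyte set and 20.1% of the cardiomyocyte set had fewer than 3 counts in every library, and 17.5% and 50.5% reached 1 TPM in all 5. In the 4 renal groups given a dose, 12.0% to 16.7% of the hepatocyte set and 37.2% to 40.6% of the cardiomyocyte set reached 1 TPM in all 5 libraries. The same leaning was seen over all calls. Renal cells were nearer to cardiomyocytes, or further in that direction, for 64.5% of the transcripts higher in hepatocytes and for 68.9% of those higher in cardiomyocytes, on the mean log2(CPM + 0.5) scale. For transcripts 10-fold or more apart these shares were 75.2% and 65.6%. Against the renal vehicle libraries at 24 h the shares were 69.3% and 63.96% over all calls, and 74.9% and 63.3% at 10-fold or more. The correlation of levels with renal libraries was 0.682 to 0.698 for hepatocyte libraries and 0.850 to 0.853 for cardiomyocyte libraries. Spearman's rho of cardiomyocytes with renal cells was thus above that of cardiomyocytes with hepatocytes in every pair of libraries. The part of contaminating or non-muscle cells in this likeness was not tested, because marker genes could not be scored on unnamed transcripts.

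At 9 h in vehicle, the transcripts 10-fold or more higher in a cell type held a larger part of the RNA in hepatocytes than in cardiomyocytes, although they were fewer. The 1442 transcripts higher in hepatocytes took 19.0% ± 0.42 of the transcript TPM in hepatocytes and 0.284% ± 0.0075 in cardiomyocytes (SD, n = 5 each). The 2355 transcripts higher in cardiomyocytes took 12.7% ± 0.42 in cardiomyocytes and 0.197% ± 0.0027 in hepatocytes. The transcripts that were not called took 42.0% ± 0.77 of the TPM in hepatocytes and 48.5% ± 1.48 in cardiomyocytes. The classes were set by these libraries, so the contrast is a description. In libraries that had no part in it, the hepatocyte class took 19.5% ± 0.24 in hepatocytes given the low dose of thioacetamide-S-oxide for 9 h (n = 5) and 10.1% ± 0.94 in vehicle hepatocytes at 24 h (n = 4, without MS-183, a library with 8.33% of its counts on transcripts). The cardiomyocyte class took 14.3% ± 0.37 in vehicle cardiomyocytes at 24 h (n = 5), more than the hepatocyte class in hepatocytes then, so the order turned. It took 10.8% ± 2.73 in low-dose cardiomyocytes at 9 h (n = 5), with MS-158 at 5.89%, and 12.0% ± 0.23 without that library (n = 4). In renal vehicle libraries at 9 h the shares were 2.22% ± 0.027 for the hepatocyte class and 7.21% ± 0.068 for the cardiomyocyte class (n = 5).

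**Figure D2:**
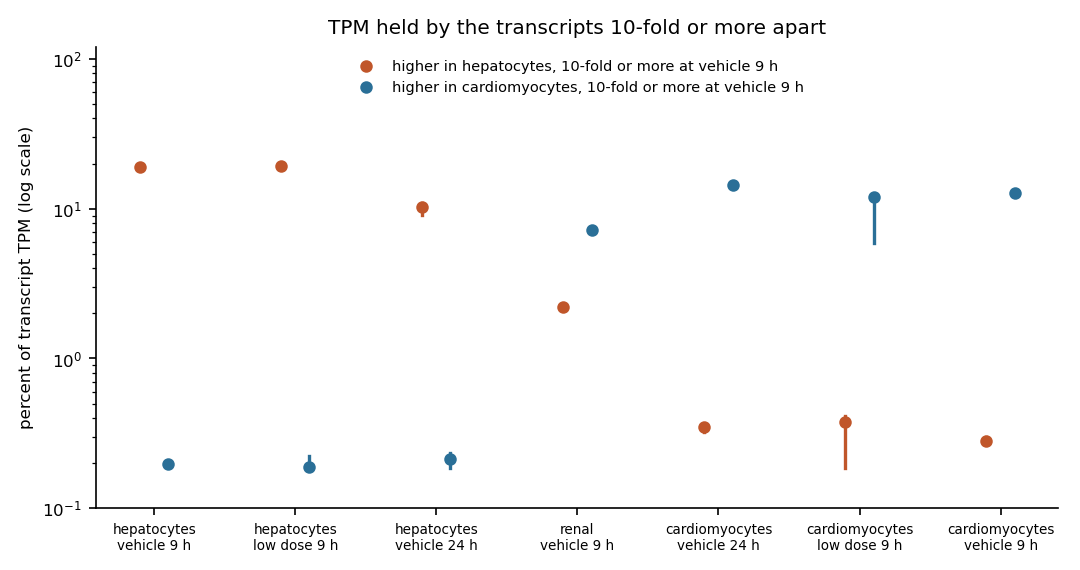
Percent of transcript TPM, on a log axis, held by the 1442 transcripts 10-fold or more higher in hepatocytes (orange) and the 2355 higher in cardiomyocytes (blue) at 9 h in vehicle. Points are medians over 5 libraries (4 for hepatocytes at 24 h, without MS-183) and lines run from the lowest to the highest library. Hepatocyte groups lie at 9.11% or more for the orange class, cardiomyocyte groups at 5.89% or more for the blue class, and renal cells lie between the cell types for the orange class. For the blue class renal cells, at a median of 7.23%, lie above the hepatocyte groups and above the lowest low-dose cardiomyocyte library.

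Of the 100 transcripts with the highest mean TPM in each cell type, 66 were the same, as were 5 of the top 10 and 614 of the top 1000. Among the top 100 of hepatocytes, 39 were called higher in hepatocytes, 24 of them by 10-fold or more and 18 by 100-fold or more, and 13 were called lower. Among the top 100 of cardiomyocytes, 36 were called higher in cardiomyocytes, 12 of them by 10-fold or more and 9 by 100-fold or more, and 8 were called lower. The top 100 of hepatocytes thus held more transcripts with a large difference, although the call counts were alike. Transcripts with the same values count separately in these lists. ENSRNOT00000087086 and ENSRNOT00000085584, each of 49 bases, both stood at 2922 TPM in hepatocytes and 4154 TPM in cardiomyocytes.

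Measures of each whole library were compared by the two-sided exact permutation test of 5 against 5, whose smallest possible p is 0.00794, with Benjamini-Hochberg adjustment over 9 measures. The 10 most abundant transcripts took 11.1% ± 0.27 of the TPM in hepatocytes and 8.20% ± 0.41 in cardiomyocytes (n = 5 each), without overlap (exact p = 0.00794, adjusted p = 0.0179). This difference was lost on CPM, counts scaled to a fixed total with no correction for length, where it was 0.0042 percentage points (adjusted p = 0.96, exact permutation test). The top 100 took 34.6% ± 0.71 and 34.8% ± 1.17 (adjusted p = 0.754), and the top 1000 took 69.6% ± 0.49 and 68.9% ± 0.80 (adjusted p = 0.298), both by the exact permutation test. The number of transcripts that held 50% of the TPM was 262.8 ± 13.2 and 245.4 ± 23.4 (exact permutation test, adjusted p = 0.298). Cardiomyocytes needed more transcripts to reach 90% of the TPM, 4786 ± 96 against 4376 ± 69 in hepatocytes (exact permutation test, adjusted p = 0.0179). The measure at 90% was not among those planned, unlike the one at 50%. Cardiomyocytes also had more transcripts at 1 TPM or more, 15960 ± 88 against 15128 ± 31 (exact permutation test, adjusted p = 0.0179). After thinning to 14445773 counts on transcripts per library, 20917 to 21199 were detected in hepatocytes and 20795 to 21329 in cardiomyocytes (exact permutation test, adjusted p = 0.316). Without cardiomyocyte library MS-153, the lowest of its group at 20795, the difference, hepatocytes minus cardiomyocytes, was -228.4 transcripts (exact permutation test, adjusted p = 0.0286). The wider set of cardiomyocytes was therefore seen among transcripts at 1 TPM or more, and not among all those detected in the full set of libraries.

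**Figure D3:**
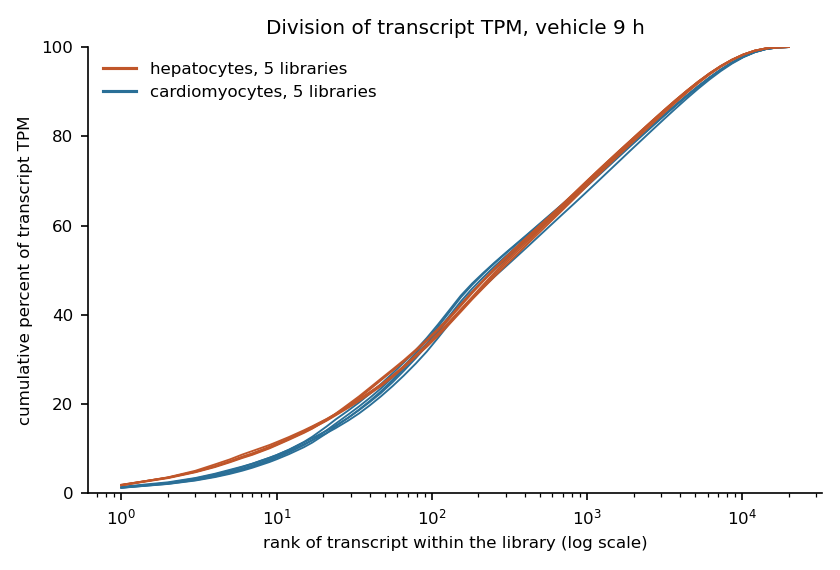
Cumulative percent of transcript TPM against the rank of the transcript within its library (log axis), with 1 line for each of the 5 hepatocyte (orange) and 5 cardiomyocyte (blue) libraries. The hepatocyte lines are above at rank 10 (11.1% against 8.20%), the groups run together at rank 100 (34.6% against 34.8%), and the cardiomyocyte lines reach 90% at a higher rank.

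Longer transcripts were more often higher in cardiomyocytes. Hepatocytes were higher for 57.5% of the called transcripts of 500 to 1000 bases, for 54.7% of those of 1000 to 2000, for 45.6% of those of 2000 to 4000, for 34.1% of those of 4000 to 8000 and for 31.8% of the 217 called transcripts of 8000 bases or more. Of the 385 called transcripts under 500 bases, 53.0% were higher in hepatocytes. The median length was 1983 bases for transcripts called higher in hepatocytes and 2462 bases for those called higher in cardiomyocytes, with 2148 bases over all tested. Within the transcripts at a mean of 10 to 100 TPM, the share higher in hepatocytes ran from 62.5% at 500 to 1000 bases to 41.0% at 4000 to 8000 bases. The mean transcript length weighted by TPM was 1390 ± 9.6 bases in hepatocytes and 1492 ± 28 bases in cardiomyocytes (n = 5 each), without overlap (exact permutation p = 0.00794, adjusted p = 0.0179). The part of RNA integrity and of 3' end coverage in this pattern was not tested, since the tables give neither.

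The leaning with length was also measured in libraries of other conditions. In the low-dose libraries at 9 h, the share of calls higher in hepatocytes was 56.2% at 500 to 1000 bases and 32.9% at 4000 to 8000 bases. In the vehicle libraries at 24 h the shares were 52.5% and 35.1%. The weighted mean length at 24 h was 1220 ± 106 bases in hepatocytes (n = 4, without MS-183) and 1558 ± 30 bases in cardiomyocytes (n = 5). In the low-dose libraries it was 1373 to 1429 bases in hepatocytes and 1097 to 1483 bases in cardiomyocytes (n = 5 each), so there the groups overlapped and their means were 1396 and 1389 bases. The lowest of these cardiomyocyte libraries was MS-158, and without it the cardiomyocyte mean was 1462 ± 22 bases (n = 4), above every hepatocyte library, so the direction turned on that library. Renal vehicle libraries at 9 h were at 1507 ± 15 bases (n = 5).

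**Figure D4:**
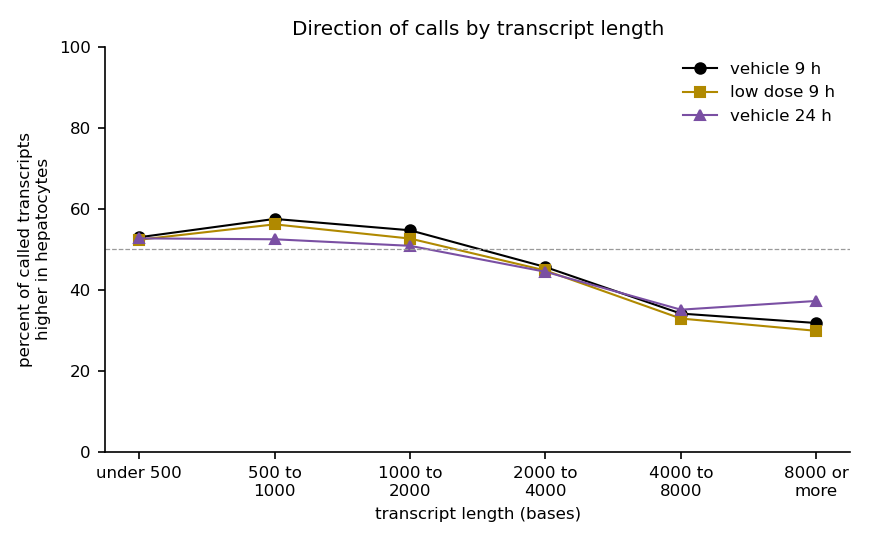
Percent of called transcripts that were higher in hepatocytes (vertical axis, 0 to 100) by transcript length in bases, for vehicle at 9 h (circles), the low dose at 9 h (squares) and vehicle at 24 h (triangles, without MS-183), with a dashed line at 50%. All 3 lines fall from the class of 500 to 1000 bases to the class of 4000 to 8000 bases, from 57.5% to 34.1% in vehicle at 9 h.

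The 4 transcripts named here were picked by these same values, so their levels at 9 h are a description. They are the transcript with the largest fold in each direction, once 10 counts were required in every library and 3 for the mean log2 CPM, and, of the remaining transcripts 10-fold or more apart with no overlap, the one with the highest level in each cell type.

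The highest level of any transcript 10-fold or more apart in hepatocytes belonged to ENSRNOT00000003921, of 2069 bases. It stood at 18966, 17813, 18771, 18075 and 17405 TPM in MS-91 to MS-95 and at 0 counts in each of the 5 cardiomyocyte libraries. It was the most abundant transcript of hepatocytes. With the floor of 3 counts per library for cardiomyocytes, its level was at least 192197-fold higher in hepatocytes (adjusted p = 7.15e-13, edgeR). The groups are as far apart as these depths can show. In other hepatocyte libraries the mean was 20492 ± 554 TPM at the low dose at 9 h (n = 5) and 4909 ± 512 TPM in vehicle at 24 h (n = 4, without MS-183). Renal vehicle libraries at 9 h held 14.2 to 82.4 TPM, with a median of 24.9, and stood apart from the other 5 renal groups, whose means were 0.0053 to 0.13 TPM. Vehicle cardiomyocytes at 24 h held at most 0.072 TPM. Low-dose cardiomyocytes held up to 0.55 TPM at 9 h and up to 2.19 TPM at 24 h, with medians of 0.012 and 0.027 TPM. Cardiomyocytes given the high dose held at most 0.052 TPM at 9 h and 3.79 to 5.41 TPM at 24 h.

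ENSRNOT00000020197, of 1180 bases, had the largest fold towards hepatocytes of 319 transcripts that met the count rule. It stood at 4059, 3975, 4253, 4010 and 3952 TPM in MS-91 to MS-95. In MS-151 to MS-155 it stood at 1.77, 0.719, 1.91, 1.51 and 1.08 TPM, from 35, 10, 31, 21 and 16 counts. The lowest hepatocyte library was far above the highest cardiomyocyte library, and the log2 fold change was 11.58 ± 0.14 (SE, adjusted p = 3.63e-15, edgeR). At the low dose at 9 h the log2 fold change was 11.96, with hepatocytes at 4553 ± 205 TPM (n = 5). In vehicle at 24 h it was 9.59, with hepatocytes at 691 ± 72 TPM (n = 4, without MS-183) and cardiomyocytes at 1.15 ± 0.24 TPM (n = 5). Dosed hepatocytes at 24 h were at 2913 ± 319 TPM for the low dose and at 3271 ± 462 TPM for the high dose (n = 5 each), so the vehicle libraries at 24 h were the lowest hepatocyte group for this transcript. Renal vehicle libraries at 9 h had a mean of 8.15 TPM and the other renal groups means of 0.68 to 2.17 TPM.

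In the other direction, ENSRNOT00000005311, of 5825 bases, had the largest fold of 443 transcripts that met the count rule. It stood at 6539, 6633, 6348, 6377 and 6829 TPM in MS-151 to MS-155. In MS-91 to MS-95 it stood at 0.076, 0.095, 0.13, 0.33 and 0.82 TPM, from 10, 12, 17, 50 and 55 counts. The log2 fold change was -14.57 ± 0.37 (SE, adjusted p = 2.94e-12, edgeR), and MS-94 and MS-95 were above the other hepatocyte libraries. Without any single library it ranged from -15.11 to -14.32. In vehicle at 24 h hepatocytes were at 7.79 ± 1.30 TPM (n = 4, without MS-183) beside 8696 ± 588 TPM in cardiomyocytes (n = 5), and the log2 fold change was -9.78. With MS-183, which held 194.9 TPM, it was -5.86. Renal vehicle libraries at 9 h held 297 ± 6.8 TPM (n = 5), between the cell types.

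ENSRNOT00000071708, of 594 bases, had the next highest level, after the one just described, among the 2346 transcripts 10-fold or more higher in cardiomyocytes with no overlap between the groups. It stood at 5360, 5201, 5348, 4970 and 5621 TPM in MS-151 to MS-155 and at 492, 468, 498, 482 and 449 TPM in MS-91 to MS-95. The log2 fold change was -3.36 ± 0.050 (SE, adjusted p = 2.32e-14, edgeR), just past 10-fold. Without MS-95 it was -3.319, just under the 10-fold limit. Unlike the other 3, this transcript was abundant in both cell types. Renal vehicle libraries at 9 h were higher still, at 6797 ± 202 TPM (n = 5). In vehicle at 24 h it was at 6000 ± 351 TPM in cardiomyocytes (n = 5) and at 212 ± 24 TPM in hepatocytes (n = 4, without MS-183), with a log2 fold change of -4.48.

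**Figure D5:**
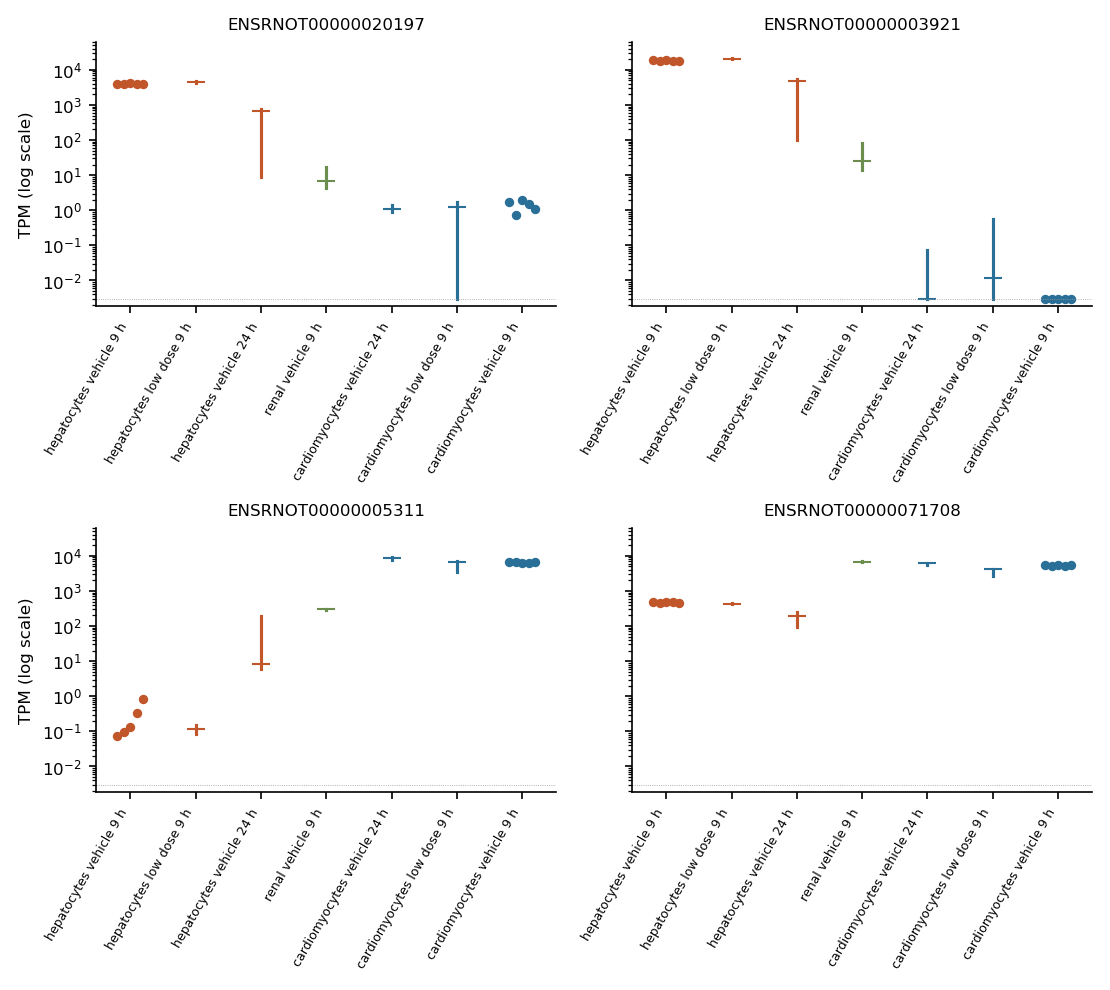
TPM (log axis) of the 4 named transcripts in hepatocytes (orange), renal cells (green) and cardiomyocytes (blue). Dots are single libraries of hepatocytes and cardiomyocytes in vehicle at 9 h. In the other groups, renal cells among them, a line runs from the lowest to the highest of 5 libraries with a bar at the median. MS-183 is included in hepatocytes at 24 h. Values of 0 lie on the dotted line, as for ENSRNOT00000003921 in all 5 cardiomyocyte libraries at 9 h, and for each named transcript hepatocytes and cardiomyocytes stay on the same sides of each other in the groups shown.

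The same contrast was then made in libraries with no part in the comparison. At the low dose, 0.025 mM in hepatocytes and 0.50 mM in cardiomyocytes at 9 h, 11164 of 18303 transcripts were called, a share of 61%. Of the 11160 vehicle calls that were tested there, 9707 (87.0%) were called in the same direction and 7 in the opposite direction. Of 3557 that were 10-fold or more apart in vehicle, 3519 (98.9%) were called in the same direction and 0 in the opposite direction. The fold changes had a Pearson correlation of 0.979 across 17529 transcripts. One low-dose cardiomyocyte library, MS-158, stood apart from the rest of its group, with 17494079 estimated counts where the others held 40864839 or more, and without it 12136 transcripts were called.

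After 24 h in vehicle 11954 of 18063 transcripts were called, a share of 66.2%, without MS-183. Of the 11082 calls at 9 h that were tested at 24 h, 8948 (80.7%) were called in the same direction and 224 in the opposite direction. Of 3549 that were 10-fold or more apart at 9 h, 3490 (98.3%) were called in the same direction and 8 in the opposite direction. With MS-183 in the fit 8373 transcripts were called at 24 h, and 6565 of 10533 calls (62.3%) were shared in direction. Of the 3100 that were 10-fold or more apart at 9 h and tested with MS-183, 2522 (81.4%) were called in the same direction, 6 in the opposite direction and 572 not at all. Without MS-183, the differences of 10-fold or more were called again more often than calls as a whole, at the other time as at the low dose. They were chosen for their size while the limit of a call stayed at 1.5-fold, so a higher share was built in and is no finding.

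The difference between the cell types changed with time for many transcripts. The interaction of cell type and time in vehicle was called for 6176 of 19308 transcripts, a share of 32%, and for 4609 with MS-183. Of the 5859 tested in all 3 fits, the difference kept its sign and was smaller at 24 h for 2008, kept its sign and was larger for 2235, and had the opposite sign for 1616. Only 224 of those with the opposite sign were called at both times. Among transcripts 10-fold or more apart at 9 h, 1385 of 3797 (36.5%) had a called interaction, beside 32% over all transcripts. In 5135 of the 5859 transcripts the change from 9 to 24 h was larger in hepatocytes, with a median size of 0.80 against 0.21 on the log2(CPM + 0.5) scale. Over all transcripts tested in these fits the medians were 0.37 and 0.16. The vehicle hepatocytes at 24 h, MS-181 to MS-185, carry library numbers far from those of the other hepatocytes, and what these numbers mark is not stated, so time and whatever goes with the numbers cannot be told apart for them. Levels in the 9 h vehicle hepatocytes correlated with those of the 24 h vehicle hepatocytes at a median rho of 0.945 (without MS-183), below the 0.981 and 0.972 with hepatocytes given the low and high dose for 24 h. For cardiomyocytes the median rho between 9 h and 24 h vehicle libraries was 0.983.

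The spread within each group was small beside these differences. The biological coefficient of variation, edgeR's estimate of the spread beyond counting error, was 14.3% in hepatocytes and 12.2% in cardiomyocytes. Among the 6353 transcripts at 10 TPM or more in both cell types, the median SD between libraries was 0.083 in hepatocytes and 0.068 in cardiomyocytes on the log2(CPM + 0.5) scale, and it was larger in cardiomyocytes for 40.7% of them.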

How the data were processed

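For every target in a library, the deposited table gives a kallisto 0.42.4 estimated count and a TPM value, and the submitters' processing notes name Rnor_6.0 as the build. Estimated counts divide a read among the transcripts it fits. The deposited TPM were scaled over transcripts and intervals together. Libraries were grouped by their titles. The members and the lists were chosen with earlier results of these data known. No table at hand paired Ensembl rat transcripts with genes, so the planned tests by gene, the marker lists and sequences were not used here.

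After rounding, the counts were tested by the quasi-likelihood test of edgeR 4.0.16 under R 4.3.3, with its default filter on low counts and TMM factors, and p-values were adjusted by Benjamini-Hochberg across every transcript that passed the filter. The standard errors given for log2 fold changes are the size of the fold change divided by the square root of that test's F statistic. No 2 of the tables were identical. Library measures were tested with SciPy's exact permutation test. Of 29768 transcripts with counts, 45.7% had whole counts in all 10 libraries (within 0.001). Reads shared between transcripts of a gene make the rest uncertain. The fit was tested on simulated data, where 139 of 193 changes were recovered among 17532 transcripts, 126 of 144 at 2-fold or more. There 0 changes were called in the wrong direction, and 3 unchanged transcripts were called. Few transcripts were changed in those data. The fit was not tested on data where most transcripts differ, as they do here. Replicate numbers are library numbers that no groups share, so no pairing was used. Alternatives were DESeq2 1.42.0, limma 3.58.1, other normalizations, filters and thresholds, renal cells in the fit, and each library left out. Named transcripts were the largest fold (with log2 CPM averaging 3 or more, and 10 or more counts in every library) and, of the rest, the highest level in each direction, among those called, 10-fold or more apart and with no overlap.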

Additional observations from a re-analysis of the deposited data

Results flagged for a closer look

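Among the 5 libraries of a group, 4 of 27 sets of values held a library far from the others by Dixon's ratio, and chance alone would mark about 1 in 20. Hepatocyte library MS-95 had 15413513 estimated counts, while the others held 28975366 to 34074008. Hepatocyte library MS-92 had the lowest TPM-weighted transcript length, 1374 bases, below the 1391 to 1398 bases of the others. Cardiomyocyte library MS-155 needed 4955 transcripts to reach 90% of the TPM, above the 4721 to 4768 of the others. Cardiomyocyte library MS-153 had 20795 transcripts detected at one depth, below the 21230 to 21329 of the others. Each of these libraries was marked in 1 set of values.

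The difference between the cell types changed from 9 h to 24 h in vehicle for 6176 transcripts by the interaction term in edgeR, and for each named transcript. The change was -1.96 on the log2 scale for ENSRNOT00000020197 (adjusted p = 9.95e-07) and 4.80 for ENSRNOT00000005311 (adjusted p = 7.36e-09). It was -1.09 for ENSRNOT00000071708 (adjusted p = 1.84e-10). For ENSRNOT00000003921 the fitted change was -4.13 (adjusted p = 0.0141), which depends on the prior count, since this transcript was at 0 counts in every cardiomyocyte library at 9 h.

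The genomic intervals, which no comparison used, took 7.17% ± 0.88 of the estimated counts in hepatocytes and 8.10% ± 1.75 in cardiomyocytes (SD, n = 5 each). Every one of these libraries is itself a vehicle control, so no lower background was at hand.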

How the results depend on the processing

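Of 237 recomputed values, 225 kept their direction and side of the threshold or stayed within the limit for a count. The difference in the share of the top 100 transcripts, which passed no test, turned from -0.20 to 0.12 percentage points without cardiomyocyte library MS-154, and ran from -0.63 to 0.12 over all libraries left out in turn. Limiting the fit to transcripts with whole counts, an alternative chosen after seeing the data, gave 4840 calls and 1654 of 10-fold or more, with 7305 transcripts tested. With limma on log2(CPM + 0.5), 2384 transcripts were 10-fold or more apart. On CPM the difference in the share of the top 10 transcripts was 0.0042 percentage points. Under the other normalizations, filters and thresholds and with renal libraries in the fit, 8833 to 14977 transcripts were called. Without any 1 library the calls were 11489 to 11831, those of 10-fold or more 3890 to 4060, and the difference in transcripts detected at one depth -228.4 to -94.9. At 24 h, at the low dose and for the interaction, leaving out 1 library, likewise chosen after seeing the data, gave 11664 to 12091, 11043 to 12136 and 5995 to 6294 calls. The named transcripts kept their call under DESeq2, upper-quartile normalization, library size only and without any 1 library, and their direction, untested, on log2(TPM + 1) and log2(TPM + 0.1), where the first gave the smallest difference for 3 of them. For ENSRNOT00000003921 that was 14.15. No paired analysis was possible because the groups share no replicate number. Depth limits the transcripts under 3 counts, and intervals on counts would cover counting error only.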
